A study of Rattus norvegicus with 8 samples.

Results

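The genes described here are the matrix metalloproteinases (MMPs), the tissue inhibitors of metalloproteinases (TIMPs), the ADAMTS proteases and the ADAMTS-like proteins, measured in left ventricles of late-pregnant female rats. They were chosen by gene symbol from probe sets annotated with 1 symbol, and 39 genes on 40 probe sets met that rule, of 14497 named genes in all. They comprised 21 MMPs, 4 TIMPs, 11 ADAMTS proteases and 3 ADAMTS-like proteins. All hearts had undergone ischemia followed by reperfusion, and no unoperated heart was analysed here. In 5 samples (ILPD in the labels) reperfusion came with the lipid emulsion treatment, 1 bolus of 5 mg/kg, and in 3 samples (placebo) with vehicle. The design text writes the treatment as ITLD and the title speaks of Intralipid, and that these names mean 1 treatment was assumed. The labels number the samples but do not state whether each number is its own animal, and the p-values therefore cover the spread among these samples alone, some of which may be technical. How long reperfusion lasted before freezing was not stated in the labels or the design text.

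MMPs are zinc proteases that cut collagens and other matrix proteins, and most are made as inactive precursors that need cleavage. TIMPs bind the active site of MMPs and block it, and Timp3 also restrains ADAMTS enzymes. ADAMTS proteases carry thrombospondin repeats; several cut proteoglycans such as aggrecan and versican, others trim procollagens, and the ADAMTS-like proteins resemble them but lack the protease domain. After myocardial ischemia these enzymes are known for breaking down the matrix of the ventricle, with neutrophils as an early source of Mmp8 and Mmp9.

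Each array gave log2 values, with array medians of 7.16 to 7.20 in ILPD and 7.08 to 7.14 in placebo. Of all probe sets, 2.81% passed limma's test at an adjusted p of 0.05. The 11 cardiomyocyte markers, among them the contractile genes Myh6 and Tnnt2, had means over the arrays of 12.44 to 14.57. No detection calls were used, so a low value is not called absent. Probe sets differ in how strongly they bind, so levels are not compared between genes. In a piece of tissue, fewer cells of a type and less RNA per cell cannot be told apart.

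Among the 39 genes, 3 rose in ILPD hearts and 1 fell in limma's test adjusted over all probe sets. The 3 that rose were Timp4, Adamts15 and Mmp9, and the 1 that fell was Adamts7. Of all named genes, 2.29% rose and 1.17% fell. The groups did not overlap, with ILPD higher, in 3 genes (8.19% of named genes) and, with ILPD lower, in 2 (5.83%), which is close to the share among named genes. Before adjustment, 8 genes were past a p of 0.05 with higher values in ILPD, against 11.5% of named genes, and 3 with lower values, against 9.39%. A positive difference was seen for 25 of the 39, against 55.0% of named genes, and the median difference was 0.08 on the log2 scale, against 0.01 over named genes. The median over all probe sets varied with brightness. It was 0.04 where the mean lay between 6 and 7, 0.06 between 7 and 8, and negative above 9. After cyclic loess normalization, which removes such a trend, the median over the 39 genes was 0.03 and 23 of them were positive. Leaving out 1 array at a time gave 2 to 4 genes that rose and 0 or 1 that fell.

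**Figure D1:**
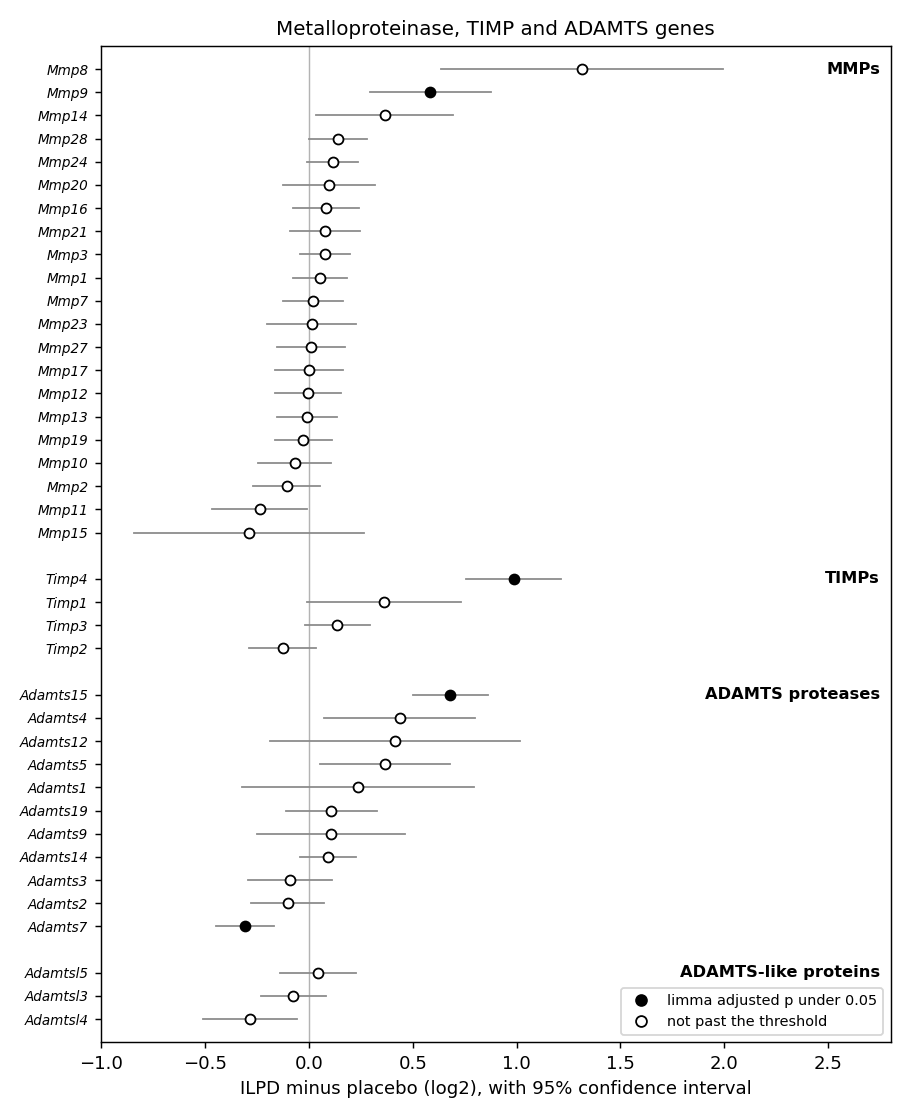
Difference between ILPD and placebo hearts (log2, horizontal axis) for the 39 genes, by family, with 95% confidence intervals from limma; filled points passed an adjusted p of 0.05. Timp4, Adamts15 and Mmp9 lie to the right of 0 and Adamts7 to the left, while Mmp8 has the largest difference, 1.32, and a wide interval.

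The inhibitors did not move together, and Timp4 stood out among them. Timp4 is the TIMP with the most restricted expression and is known for its abundance in the heart. It measured 10.62, 10.83, 10.67, 10.57 and 10.81 in the 5 ILPD hearts, against 9.97, 9.65 and 9.52 in the 3 placebo hearts. Every ILPD value lay above every placebo value, with a gap of 0.60 between the groups. Its mean was 10.70 ± 0.11 (SD, n = 5) in ILPD and 9.71 ± 0.23 (SD, n = 3) in placebo, a rise of 0.99 (SE 0.10, 95% interval 0.76 to 1.21, limma adjusted p = 0.00203) or 1.98-fold. The test was passed in 14 of 14 alternatives, with an adjusted p of at most 0.0167, reached without placebo array 2. Ranked by difference, Timp4 was number 30 of the 14497 named genes. In the RefSeq table (assembly GRCr8) Timp4 overlaps Syn2, a synaptic vesicle gene, whose own probe set differed by 0.09 (adjusted p = 0.445).

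The sequence before the annotated start of Timp4 is shown because this gene had the clearest rise. It covers 250 bases up to the start, from RefSeq (build GRCr8), 5′ to 3′, and has no capitals because the AP-1 letters described below, TGANTCA, were not found in it.
Timp4, chr4:149985205-149985454, minus strand: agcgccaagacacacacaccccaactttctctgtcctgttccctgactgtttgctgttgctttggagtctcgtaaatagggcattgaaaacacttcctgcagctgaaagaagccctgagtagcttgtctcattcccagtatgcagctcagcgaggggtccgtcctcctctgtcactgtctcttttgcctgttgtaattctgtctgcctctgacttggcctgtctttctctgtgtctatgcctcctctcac

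The other 3 TIMPs did not pass the test. Timp1, the inhibitor most often induced by inflammation and injury, measured 11.95, 12.14, 11.76, 12.01 and 11.50 in ILPD hearts, against 11.48, 11.18 and 11.87 in placebo hearts. The groups overlapped, because placebo array 3 lay above ILPD arrays 3 and 5, and the difference was 0.36 (SE 0.17, 95% interval -0.01 to 0.73, limma adjusted p = 0.286). Timp3, which is bound to the matrix, ranged from 12.00 to 12.25 in ILPD and from 11.89 to 12.01 in placebo, a difference of 0.14 (95% interval -0.02 to 0.29, adjusted p = 0.331). Timp2, which also takes part in activating Mmp2, ranged from 11.09 to 11.36 in ILPD and from 11.22 to 11.37 in placebo, a difference of -0.13 (95% interval -0.29 to 0.03, adjusted p = 0.399). Over all probe sets, the median difference was -0.13 where the mean lay between 11 and 12 and -0.14 where it lay above 12. After cyclic loess normalization, which removes such a trend, the difference of Timp3 was 0.29 (adjusted p = 0.0901), that of Timp2 was -0.0056 (0.982) and that of Timp1 was 0.50 (0.186).

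The values of Timp4 stood beside shifts in cell markers. Markers of smooth muscle and pericytes were higher in 7 of 9 genes on the deposited scale, against 55.0% of named genes. Their mean level was 10.0001 to 10.19 in ILPD and 9.82 to 9.90 in placebo. The 2 lower ones were Abcc9 (-0.05, limma adjusted p = 0.823) and Rgs5 (-0.04, 0.812). After cyclic loess normalization these differed by 0.09 and 0.13, and 9 of 9 were higher, as after quantile normalization. Kcnj8, a potassium channel of pericytes, rose by 0.64 (limma adjusted p = 0.0120), and missed the threshold once placebo array 2 (0.0632) or 3 (0.0605) was left out. Endothelial markers were higher in 7 of 10, with mean levels of 10.12 to 10.33 in ILPD and 10.12 to 10.15 in placebo. The 3 lower ones were Cldn5 (-0.42, limma adjusted p = 0.133), Cdh5 (-0.16, 0.446) and Flt1 (-0.07, 0.658). After cyclic loess or quantile normalization 8 of the 10 were higher. Among the endothelial markers Egfl7, a protein secreted by endothelium, rose by 0.60 (adjusted p = 0.0282), and missed the threshold once placebo array 1 (0.0999), 2 (0.0539) or 3 (0.104) or ILPD array 2 (0.0642) or 3 (0.0551) was left out and after quantile normalization (0.0620). Cardiomyocyte markers were lower in 11 of 11 on the deposited scale, with a mean level of 13.60 to 13.76 in ILPD and 13.78 to 13.83 in placebo, but 9 of 11 were higher after cyclic loess normalization and 6 of 11 after quantile normalization. Tnnc1, a troponin, fell by 0.37 (adjusted p = 0.0195), a call lost after cyclic loess (0.205) or quantile normalization (0.121) and without placebo array 2 (0.0887) or 3 (0.0689). Within ILPD, Timp4 was lowest on array 4 (10.57), where the mean of the smooth muscle and pericyte markers was highest (10.19). On array 1, where that mean was lowest (10.0001), Timp4 was 10.62. The ILPD values of Timp4 spanned only 0.26. The part of these markers in the rise of Timp4 was not tested.

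**Figure D2:**
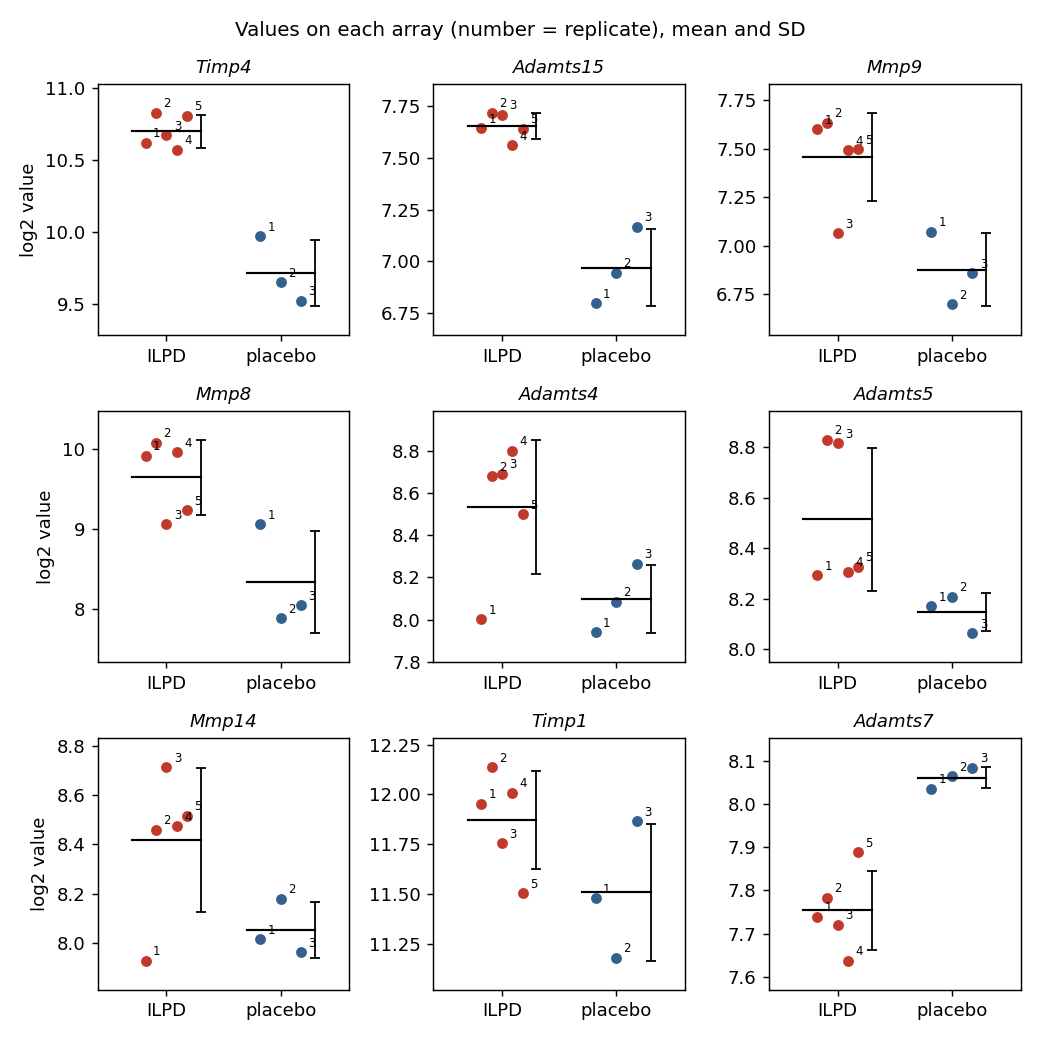
Log2 value of 9 genes on each array (points, numbered by replicate), with group means (lines) and SD (bars), ILPD left and placebo right; vertical axes differ between panels and do not start at 0. The groups lie apart for Timp4, Adamts15, Adamts5 and Adamts7, and overlap for the other 5 genes.

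The proteoglycan-cleaving ADAMTS enzymes all had positive differences with all arrays, 5 of 5 measured, against 55.0% of named genes, and 1 of the 5 rose. That was Adamts15, an enzyme that cuts aggrecan and versican. It measured 7.64, 7.72, 7.71, 7.56 and 7.64 in ILPD hearts, against 6.80, 6.95 and 7.17 in placebo hearts. The ILPD values lay close together and above every placebo value, with a gap of 0.39. The mean was 7.65 ± 0.06 (SD, n = 5) in ILPD and 6.97 ± 0.19 (SD, n = 3) in placebo, a rise of 0.68 (SE 0.08, limma adjusted p = 0.00369) or 1.6-fold. The call held in 14 of 14 alternatives, with an adjusted p of at most 0.0268, reached without placebo array 2.

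Adamts4 and Adamts5, the classical aggrecanases, did not pass. Adamts4 measured 8.0, 8.68, 8.69, 8.80 and 8.50 in ILPD hearts, against 7.94, 8.08 and 8.26 in placebo hearts. Of the ILPD arrays 4 lay above all placebo arrays and array 1 lay among them. The difference was 0.44 (SE 0.16, limma adjusted p = 0.191), and without ILPD array 1 it was 0.57 and passed the test (adjusted p = 0.0203). Adamts4 passed in that 1 of 14 alternatives alone, with an adjusted p of up to 0.452 without placebo array 1. Adamts5 measured 8.29, 8.83, 8.81, 8.31 and 8.33 in ILPD hearts, against 8.17, 8.21 and 8.06 in placebo hearts. Its groups did not overlap, although 3 ILPD arrays lay just above the placebo arrays, and the difference was 0.37 (SE 0.14, adjusted p = 0.203). Adamts1, next to Adamts5 in the genome and known to cut versican, ranged from 10.46 to 11.18 in ILPD and from 10.28 to 11.43 in placebo, where array 3 was highest (difference 0.24, adjusted p = 0.682). Without placebo array 3 its difference was 0.59, and without placebo array 1 it was 0.01. Adamts9, another versican-cutting enzyme, differed by 0.11 (adjusted p = 0.789), and by -0.051 without placebo array 1.

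Adamts7 was the gene that fell. It is known for cutting cartilage oligomeric matrix protein and for its part in the migration of vascular smooth muscle cells. It measured 7.74, 7.78, 7.72, 7.64 and 7.89 in ILPD hearts, against 8.03, 8.06 and 8.08 in placebo hearts. All ILPD values lay below all placebo values, with a gap of 0.15, and the placebo values were close together. The mean was 7.75 ± 0.09 (SD, n = 5) in ILPD and 8.06 ± 0.02 (SD, n = 3) in placebo, and on the log2 scale it fell by 0.31 (limma adjusted p = 0.0347, SE 0.06). Adamts7 no longer passed without placebo array 1 (0.0867), 2 (0.113) or 3 (0.109), nor without ILPD array 1 (0.0528), 2 (0.0704), 3 (0.0700) or 4 (0.0643), with differences of -0.32 to -0.28.

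Adamts12, the closest relative of Adamts7, did not move with it. It measured 9.21, 9.94, 10.66, 9.39 and 9.84 in ILPD hearts, against 9.40, 9.54 and 9.25 in placebo hearts. ILPD array 3 was far above the rest, ILPD array 4 lay among the placebo values and ILPD array 1 below them, and the difference of 0.41 did not pass (SE 0.27, limma adjusted p = 0.468). The procollagen-trimming enzymes Adamts2, Adamts3 and Adamts14 differed by -0.10, -0.09 and 0.09, and a second probe set of Adamts3 gave -0.13; neither they nor Adamts19 (0.11) passed. Of the ADAMTS-like proteins, Adamtsl4, which binds fibrillin microfibrils, measured 9.58, 9.84, 9.74, 9.77 and 9.84 in ILPD hearts, against 9.94, 10.31 and 9.86 in placebo hearts. All ILPD values were below all placebo values, by a gap of 0.02, but the difference of -0.28 did not pass (SE 0.10, adjusted p = 0.180) and was -0.15 (0.45) without placebo array 2. Adamtsl3 (-0.07) and Adamtsl5 (0.05) did not pass.

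Of the 21 MMPs, 1 rose, the gelatinase Mmp9, and 0 fell, against 2.29% and 1.17% of named genes. Before adjustment, 4 were past a p of 0.05 with higher values in ILPD and 1 with lower values, against 11.5% and 9.39% of named genes. Mmp8, the neutrophil collagenase, had the largest difference of the 39 genes and narrowly missed the threshold. Mmp8 measured 9.91, 10.08, 9.06, 9.96 and 9.23 in ILPD hearts, against 9.06, 7.88 and 8.05 in placebo hearts. ILPD array 3 and placebo array 1 had nearly the same value, and the other ILPD arrays lay above all placebo arrays. The mean was 9.65 ± 0.47 (SD, n = 5) in ILPD and 8.33 ± 0.64 (SD, n = 3) in placebo, a difference of 1.32 (SE 0.30, 95% interval 0.64 to 2.0, limma adjusted p = 0.0511), number 3 from the top among named genes. It passed without placebo array 1 (difference 1.68, adjusted p = 0.0280), with ILPD array 3 (0.0439) or 5 (0.0458) left out, and in the fit that drops the dimmest 40% of probe sets (0.0360). In the other 10 alternatives Mmp8 did not pass, with adjusted p-values up to 0.108 with ILPD array 4 left out, and of 0.165 and 0.177 with placebo arrays 3 and 2 left out.

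Mmp9, or gelatinase B, which cuts denatured and basement membrane collagens, measured 7.6, 7.63, 7.07, 7.49 and 7.5 in ILPD hearts, against 7.07, 6.70 and 6.86 in placebo hearts. As for Mmp8, ILPD array 3 was the lowest of its group, placebo array 1 the highest of its group, and these 2 arrays closed the gap between the groups. The mean was 7.46 ± 0.23 (SD, n = 5) in ILPD and 6.87 ± 0.19 (SD, n = 3) in placebo, a rise of 0.58 (SE 0.13, limma adjusted p = 0.0466) or 1.5-fold. This call was lost without placebo array 1 (0.0626), 2 (0.162) or 3 (0.135), and without ILPD array 1 (0.0695), 2 (0.0965), 4 (0.0964) or 5 (0.0662). It was also lost with array weights (0.0591), with an intensity trend (0.0506) and after quantile (0.0894) or cyclic loess normalization (0.0851). Without ILPD array 3 the rise was 0.68 (adjusted p = 0.0104).

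Markers of neutrophils shared the lowest ILPD array and the highest placebo array with Mmp8 and Mmp9, as did fibroblast markers. Of 15 markers such as Csf3r, Cxcr2 and S100a9, a list without Mmp8 and Mmp9, 14 had a positive difference and 0 passed the test, while 5 were past an unadjusted p of 0.05, with a median of 0.23. Those 5 were Retnlg (1.2, limma adjusted p = 0.0680), Il1r2 (1.17, 0.0683), Cxcr2 (1.02, 0.0898), Trem1 (0.998, 0.0583) and S100a8 (0.58, 0.176), and the groups did not overlap for Il1r2, Trem1 and S100a8. Of named genes, 55.0% had a positive difference, 11.5% were past that unadjusted p with higher values in ILPD, and 8.19% did not overlap with ILPD higher. The mean level of the 15 markers was 8.11, 7.99, 7.49, 7.89 and 7.59 in the ILPD hearts, against 7.55, 7.19 and 7.33 in the placebo hearts. ILPD array 3 was again the lowest of its group and placebo array 1 the highest of its group. S100a8, Fcgr3a, Mpo, Ngp and Ltf were among the dimmest 40% of probe sets, and the lowest mean of a neutrophil marker over all arrays was 6.11. Mpo (0.0063), Ngp (0.05), Camp (0.09) and Elane (0.12) had small differences, and Ltf was lower (-0.12). Markers of macrophages and monocytes had a positive difference in 10 of 11, with mean levels of 8.76 to 9.15 in ILPD and 8.44 to 8.74 in placebo. The lower one was Adgre1 (-0.17, limma adjusted p = 0.572), and Mrc1 (0.08) and Cd163 (0.15) had small differences. From this list Cx3cr1, a monocyte chemokine receptor, rose by 0.76 (limma adjusted p = 0.0311). It missed the threshold once placebo array 1 (0.0910), 2 (0.123) or 3 (0.0720) or ILPD array 2 (0.0672) was left out and after quantile normalization (0.0621). Ccr2, another such receptor, had the largest difference of that list, 1.21 (adjusted p = 0.0624), and passed with placebo array 1 left out (0.0258) or the dim probe sets dropped (0.0436). Those were 2 of 14 alternatives, and its adjusted p was up to 0.204 without placebo array 2. The part of these cells in the values of Mmp8 and Mmp9 was not tested.

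**Figure D3:**
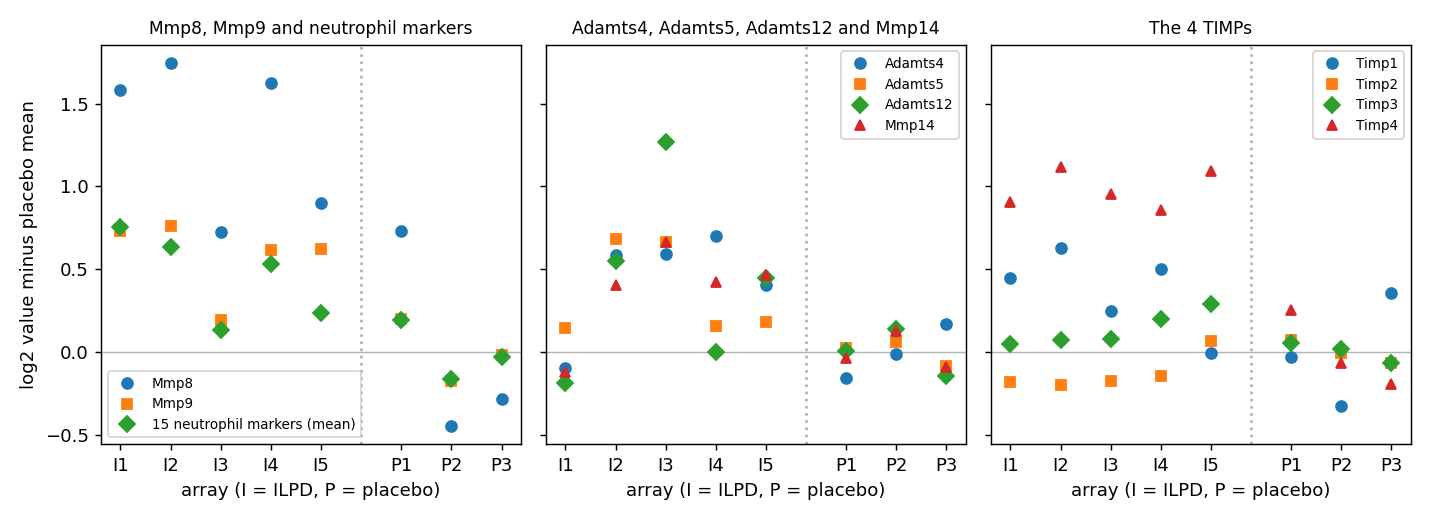
Log2 value minus the placebo mean (vertical axis) on each array, ILPD arrays left and placebo arrays right of the dotted line. Within ILPD, Mmp8, Mmp9 and the mean of 15 neutrophil markers are lowest on array 3, and Adamts4, Adamts5, Adamts12 and Mmp14 on array 1. Of all 39 genes, plotted or not, 15 were lowest within ILPD on array 1 and 13 on array 3. Timp4 is higher on every ILPD array than on any placebo array.

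Mmp8 lies in a run of MMP genes on chromosome 8, of which 9 were measured here: Mmp13, Mmp12, Mmp3, Mmp1, Mmp10, Mmp8, Mmp27, Mmp20 and Mmp7, in that order in the RefSeq table. The group holds the collagenases Mmp1, Mmp8 and Mmp13, the stromelysins Mmp3 and Mmp10, the macrophage elastase Mmp12, matrilysin Mmp7 and the enamel protease Mmp20. The 8 neighbours of Mmp8 differed by -0.07 to 0.10 and none of the 8 passed limma's test, against 1.32 for Mmp8. All 8 were among the dimmest 40% of probe sets by mean over the arrays. Mmp1, for example, ranged from 5.70 to 5.88 in ILPD and from 5.70 to 5.78 in placebo, and Mmp13 from 5.70 to 5.93 in ILPD and from 5.79 to 5.88 in placebo.

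The sequences before the starts of these 9 genes are set side by side because the genes are neighbours while their differences ranged up to that of Mmp8. Each line covers the 130 bases up to the annotated start, from RefSeq (build GRCr8), 5′ to 3′ on the gene's strand, and capitals mark the letters TGANTCA, the binding motif of AP-1, a factor known to drive many MMP genes.
Mmp13, chr8:12782699-12782828, plus strand: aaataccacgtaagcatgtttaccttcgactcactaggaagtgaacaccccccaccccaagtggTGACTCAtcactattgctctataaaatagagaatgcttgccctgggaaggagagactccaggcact
Mmp12, chr8:12866522-12866651, plus strand: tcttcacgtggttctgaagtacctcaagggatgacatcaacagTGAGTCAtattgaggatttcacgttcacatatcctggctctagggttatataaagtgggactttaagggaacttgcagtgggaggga
Mmp3, chr8:12925151-12925280, plus strand: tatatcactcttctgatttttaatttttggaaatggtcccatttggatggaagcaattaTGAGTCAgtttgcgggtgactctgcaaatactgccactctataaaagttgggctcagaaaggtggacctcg
Mmp1, chr8:12943323-12943452, plus strand: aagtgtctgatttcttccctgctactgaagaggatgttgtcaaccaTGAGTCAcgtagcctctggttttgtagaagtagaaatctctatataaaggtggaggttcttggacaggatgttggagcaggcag
Mmp10, chr8:12974577-12974706, plus strand: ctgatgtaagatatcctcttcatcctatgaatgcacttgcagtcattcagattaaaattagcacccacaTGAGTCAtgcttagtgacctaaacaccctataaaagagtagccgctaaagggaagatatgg
Mmp8, chr8:13008760-13008889, plus strand: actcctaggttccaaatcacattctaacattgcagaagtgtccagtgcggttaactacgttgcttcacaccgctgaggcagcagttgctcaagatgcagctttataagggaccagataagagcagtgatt
Mmp27, chr8:13030622-13030751, plus strand: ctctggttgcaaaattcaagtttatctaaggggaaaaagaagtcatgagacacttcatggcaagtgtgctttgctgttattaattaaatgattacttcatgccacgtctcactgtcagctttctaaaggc
Mmp20, chr8:13074149-13074278, plus strand: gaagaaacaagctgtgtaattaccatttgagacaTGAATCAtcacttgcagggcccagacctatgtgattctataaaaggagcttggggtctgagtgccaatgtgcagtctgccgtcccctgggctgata
Mmp7, chr8:13132913-13133042, plus strand: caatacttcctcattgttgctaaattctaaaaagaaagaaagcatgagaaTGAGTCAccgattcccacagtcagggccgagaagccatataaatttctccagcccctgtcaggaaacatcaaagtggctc

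The AP-1 letters stood in 7 of these 9 windows and in neither that of Mmp8 nor that of Mmp27. Their first base lay 61 to 96 bases before the start, at 61 in Mmp10, 66 in Mmp13, 71 in Mmp3, 80 in Mmp7, 84 in Mmp1, 87 in Mmp12 and 96 in Mmp20. The motif reads the same on both strands apart from its middle base, so both were searched. In the 250 bases before the start, 7 of the 9 promoters of the run held it, with a second match at 242 in Mmp1. The share was 6.34% of 33469 RefSeq promoters in the same window. Promoters were matched for 30 of the 39 genes, and none of the 21 outside this gene run held it in that window, Timp4, Timp1, Adamts4 and Adamts7 among them. The genes without a matched promoter, which were not searched, include Mmp9, Adamts15, Adamts5, Mmp14 and Mmp2. TATAAA, the letters of the TATA box, or its reverse complement TTTATA, stood in 8 of the 9 promoters of the run, in 3 of the other 21 and in 12.9% of all. TTGCNNAA, a form of the C/EBP motif, or its reverse complement TTNNGCAA, stood in that of Mmp8 at 101 and 46 bases before the start and in those of Mmp3, Mmp27 and Mmp7, against 9.22% of all promoters. AGGAAG, a form of the ETS motif, or its reverse complement CTTCCT, stood in 9 of the 30 matched promoters, against 29.5% of all. These matches describe letters and not binding, and the genes of the run share ancestry.

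The membrane-type and remaining MMPs did not pass. Mmp14, the membrane-anchored activator of Mmp2, measured 7.93, 8.46, 8.71, 8.47 and 8.51 in ILPD hearts, against 8.02, 8.18 and 7.96 in placebo hearts. Of the ILPD arrays 4 lay above all placebo arrays and array 1 below them, as the lowest of its group. Within ILPD, array 1 was lowest in 15 of the 39 genes, Adamts4, Adamts5, Adamts12, Mmp2 and Timp3 among them. ILPD array 3 was lowest in 13. The difference of Mmp14 was 0.37 (SE 0.15, limma adjusted p = 0.226). Without ILPD array 1 it was 0.49 and passed (adjusted p = 0.0221). Mmp14 passed in that 1 of 14 alternatives alone, with an adjusted p of up to 0.437 without placebo array 1. ILPD array 1 was also the array with the highest mean of the neutrophil markers. Mmp2, or gelatinase A, the constitutive gelatinase of heart fibroblasts, measured 10.83, 10.90, 10.85, 10.998 and 11.07 in ILPD hearts, against 11.10, 11.08 and 10.93 in placebo hearts. Its groups overlapped (difference -0.11, 95% interval -0.27 to 0.05, adjusted p = 0.486), and after cyclic loess normalization the difference was 0.0052. Fibroblast markers had a positive difference in 4 of 11, against 55.0% of named genes, and 0 passed. Their mean levels were 9.48 to 9.86 in ILPD and 9.66 to 9.83 in placebo. Before adjustment, 2 were past a p of 0.05 with lower values in ILPD, against 9.39% of named genes. The groups did not overlap, with ILPD lower, in 1, Ddr2, against 5.83% of named genes.

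Mmp15, a second membrane-type enzyme, varied widely, from 9.18 to 10.48 in ILPD and from 9.74 to 10.25 in placebo (difference -0.29, SE 0.25, limma adjusted p = 0.602). Mmp11, stromelysin 3, ranged from 7.47 to 7.82 in ILPD and from 7.79 to 8.16 in placebo, a difference of -0.24 (adjusted p = 0.256) that was past an unadjusted p of 0.05 alone and was -0.12 (0.614) without placebo array 2. Mmp28, or epilysin, ranged from 7.63 to 7.84 in ILPD and from 7.55 to 7.65 in placebo, a difference of 0.14 (adjusted p = 0.266). The 20 genes not singled out by the naming rule differed by -0.10 to 0.11, with 12 positive and 8 negative, and had adjusted p-values of 0.310 and above. Their 95% intervals all lay between -0.29 and 0.33.

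**Figure D4:**
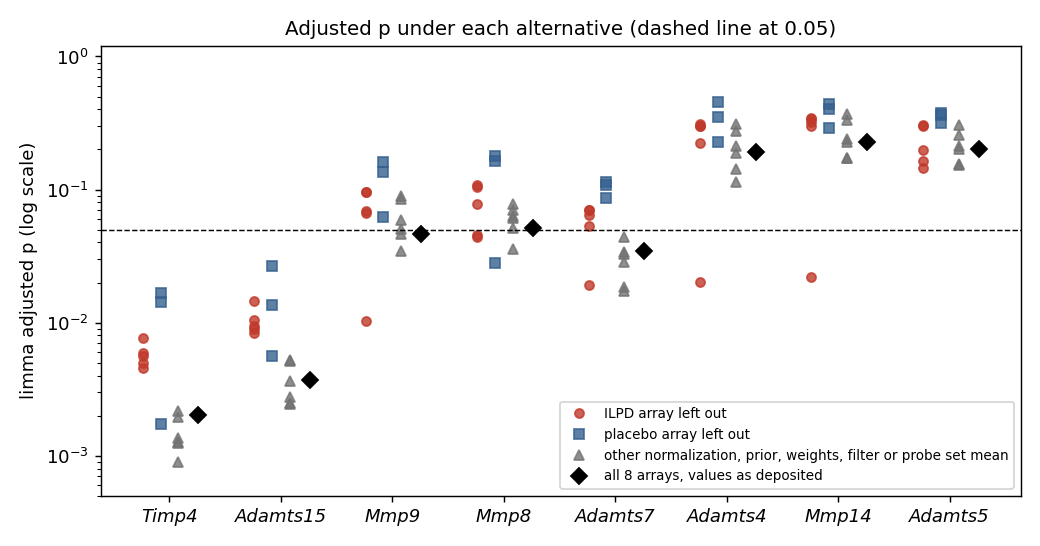
Limma adjusted p (log scale, dashed line at 0.05) of 8 genes with all 8 arrays (diamonds), with 1 ILPD or 1 placebo array left out (circles and squares) and under other settings (triangles). Timp4 and Adamts15 stay below 0.05 throughout, while Mmp9, Mmp8 and Adamts7 lie on both sides of it.

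Of the genes that activate, restrain or feed these enzymes, 1 passed the test, against 2.81% of all probe sets. The unadjusted counts in these lists stand beside 11.5% of named genes higher in ILPD and 9.39% lower at a p of 0.05. In the plasminogen system, which activates MMP precursors, 0 of 11 measured genes passed (1, the urokinase gene Plau at 0.24, was past an unadjusted p of 0.05), from Plat, the tissue activator (-0.23, limma adjusted p = 0.336), to Plaur, the urokinase receptor (0.31, 0.508), with a median of 0.05. In the list of other inhibitors, activators and clearance, 1 of 17 fell and 0 rose, while 3 higher and 2 lower were past an unadjusted p of 0.05, with a median of 0.07. Bsg, or EMMPRIN, a membrane protein known to induce MMPs in neighbouring cells, measured 13.38, 13.40, 13.36, 13.42 and 13.44 in ILPD hearts, against 13.63, 13.59 and 13.62 in placebo hearts. The groups were apart by 0.16 and it fell by 0.21 (SE 0.05, limma adjusted p = 0.0450). That call was lost in 12 of 14 alternatives, and after cyclic loess normalization its difference was -0.02 (0.890). Bsg did not pass without placebo array 1 (0.134), 2 (0.119) or 3 (0.113) or without ILPD array 1 (0.0709), 2 (0.0920), 3 (0.0950), 4 (0.0782) or 5 (0.0504).

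Furin, the protease that activates membrane-type MMPs, Mmp11 and ADAMTS precursors, ranged from 10.12 to 10.29 in ILPD and from 10.36 to 10.50 in placebo. Its groups did not overlap, but the difference of -0.22 did not pass (limma adjusted p = 0.0872). Pcsk5, a related convertase, had a difference of 0.29 (adjusted p = 0.0940), and Thbs1, a thrombospondin, one of 0.55 (0.260), and neither passed. Lcn2, a neutrophil and epithelial protein that binds Mmp9 and protects it from breakdown, measured 11.23, 10.88, 10.81, 9.89 and 9.46 in ILPD hearts, against 8.43, 9.0 and 9.84 in placebo hearts. Placebo array 3 lay above ILPD array 5, and the difference of 1.36 did not pass (SE 0.42, adjusted p = 0.119), though it did without ILPD array 5 (1.61, 0.0493). Lcn2 passed in that 1 of 14 alternatives alone, with an adjusted p of up to 0.354 without placebo array 1.

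Of 4 measured ADAM sheddases 0 passed (1 was past an unadjusted p of 0.05), with Adam9 at 0.14 (limma adjusted p = 0.509) and Adam15 at -0.21 (0.107). Of 13 matrix proteoglycans and their partners 0 passed (2 were past an unadjusted p of 0.05), with a median of -0.02. Vcan, or versican, the large proteoglycan that Adamts1, Adamts4, Adamts5, Adamts9 and Adamts15 cut, measured 9.88, 10.18, 9.59, 9.84 and 9.90 in ILPD hearts, against 9.54, 8.88 and 9.59 in placebo hearts. The ILPD values were all above the placebo values, by 0.01 at the nearest point, and the difference was 0.55 (SE 0.17, limma adjusted p = 0.120), or 0.32 (0.297) without placebo array 2. Hapln1, a link protein that ties proteoglycans to hyaluronan, ranged from 6.55 to 6.74 in ILPD and from 6.36 to 6.46 in placebo. Its groups did not overlap and it came closest to the threshold in this list (difference 0.24, adjusted p = 0.0616), passing with array weights (0.0449) and without ILPD array 5 (0.0386). Those were 2 of 13 alternatives, since the filter on dim probe sets dropped Hapln1, and its adjusted p was up to 0.195 without placebo array 1. Lum, or lumican, a small proteoglycan of collagen fibrils, differed by -0.35 (adjusted p = 0.356).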

How the data were processed

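Total RNA of rat left ventricle was labelled with biotin and hybridised to Affymetrix arrays, per the labels' protocols. The authors deposited log2 values for 28826 probe sets; the log2 scale was read from their range, with a normalization not given in the sources used here, and the submitters' processing notes name R 2.14.2. The number of arrays limits the precision. Gene names came from the platform annotation: 15209 probe sets had 1 symbol, 306 several and 13311 none here. All 39 genes matched the RefSeq table (GRCr8) by gene ID; only Adamts3 had a second probe set, and the one with the highest mean stood for the gene. Differences were fitted with limma 3.58.1 in R 4.3.3 (lmFit, eBayes, no covariates), as a two-sided test adjusted by Benjamini-Hochberg across all probe sets, and tested on simulated data. The 14 alternatives per gene were array weights, quantile or cyclic loess normalization, eBayes with trend and robust options, dropping the dimmest 40% of probe sets (which kept 28 of the 39), averaging the probe sets of a gene, and omission of each of the 8 arrays. Of the 39 genes, those past an adjusted or unadjusted p of 0.05, those whose groups did not overlap and a short list (the TIMPs, Mmp2, Mmp9, Mmp14, Adamts1, Adamts4, Adamts5 and Adamts9) were named, with the highest and lowest of the rest; of each pathway list, those past an adjusted p of 0.05 and the highest and lowest difference. The other genes named with values (Hapln1, Pcsk5, Thbs1, Plau, Mmp1, Mmp13, the procollagen enzymes, Adamts19, Adamtsl3, Adamtsl5 and single cell markers) were chosen after their values were seen. Genes and lists were chosen with earlier results of these data known. Figures used matplotlib 3.10.9.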

Additional observations from a re-analysis of the deposited data

Results flagged for a closer look

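Within the 5 ILPD arrays, a single array lay far from the others in 2 of the 48 genes examined, and about 1 group in 20 is marked in this way by chance. Mmp9 was 7.07 on ILPD array 3, against 7.49 to 7.63 on the other ILPD arrays. Timp2 was 11.36 on ILPD array 5, against 11.09 to 11.15 on the other ILPD arrays.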

How the results depend on the processing

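Over all probe sets, 811 passed the threshold. The count was 484 after quantile normalization, 1756 at an adjusted p of 0.1 and 172 to 975 when 1 array was left out. The replicate numbers showed no clear pairing of the samples (correlations of same-numbered deviations 0.22, -0.06 and -0.10, and not every array correlated best with its own number). So few correlations cannot exclude a pairing. With the replicate number as a block, 459 probe sets passed, with 2 of the 39 genes higher and 0 lower. Under the block, Mmp9 (limma adjusted p = 0.108), Adamts7 (0.0866) and Bsg (0.157) did not pass, while Lcn2 did (0.0450). The number of genes that fell was 0 to 1 without single arrays. In the list of other inhibitors and activators the count was 0 after cyclic loess, after quantile normalization, with the intensity trend and without dim probe sets, and 0 to 1 without single arrays. In the proteoglycan list it was 1 with array weights (Hapln1), 1 with the block (Lum) and 0 to 1 without single arrays (Hapln1 without ILPD array 5). Of the 39 genes, 9 changed direction in at least 1 of the 14 alternatives, 0 of which had passed. Adamts9 ran from -0.051 (without placebo array 1) to 0.30 without single arrays, Adamtsl5 from -0.036 (without placebo array 1) to 0.098, Mmp13 ran from -0.037 to 0.024 without single arrays, and Mmp2 was 0.0052 after cyclic loess. The other 5 (Mmp7, Mmp12, Mmp17, Mmp23 and Mmp27) were near 0 with all arrays. The median over the 39 genes ran from 0.03 to 0.08, and was 0.11 over the 28 genes left without dim probe sets.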
